A study of Homo sapiens with 6 samples.

Results

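The fibroblast growth factor (FGF) genes read out here are 10 genes taken by symbol from the count tables, which list 64253 genes in all. They are the ligands FGF1, FGF2, FGF5 and FGF18, the carrier FGFBP1, the receptors FGFR1, FGFR2, FGFR3 and FGFR4, and the receptor-like FGFRL1. Each symbol matched 1 row of the tables, and 7 of the 10 genes had enough reads to be tested. The members were taken by name, and were chosen with earlier results of these data known. RNA came from PC-3 cells, an established human prostate cancer line grown in serum, in 3 samples with an shRNA against CdGAP (shCdGAP) and 3 samples with a control shRNA (shCon). CdGAP, a GTPase-activating protein for Rac1 and Cdc42, is encoded by ARHGAP31. Both shRNAs were delivered by lentivirus for stable expression. After puromycin selection, cells with the CdGAP shRNA were grown up from single cells. The methods give no such step for control cells, and neither name the sequenced clone nor say whether it carried a luciferase reporter, so differences between clones and the effect of the shRNA cannot be told apart in these samples.

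FGFs are secreted proteins that bind cell-surface receptor tyrosine kinases together with heparan sulphate chains, and the activated receptor signals through the adaptor FRS2 to the RAS-ERK cascade, PI3K and PLCγ. FGF1 can bind every signalling FGF receptor, and FGF1 and FGF2 lack a classical signal peptide and leave the cell by unconventional routes. In the normal prostate, FGFs carry signals between stroma and epithelium, and a gain of FGF ligands or of FGFR1 is a known feature of prostate tumours. FGFRL1 binds FGFs but lacks the kinase domain.

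The libraries held 33182796 to 43154039 counted reads. ARHGAP31 was at 26.8 ± 0.351 CPM (counts scaled to library size) in shCdGAP cells and 59.2 ± 1.22 in shCon cells (SD, n = 3 each), which goes with the labels. Replicate 2 of shCdGAP stood apart: in a chi-square comparison of counts, its pairs with the other shCdGAP libraries gave 34.3 and 42.0 per degree of freedom, against 2.94 to 8.36 for every other pair within a group. Results that rest on it are given with and without it. Of 5 epithelial markers, KRT8 and KRT18 were at mean levels of 185 to 270 CPM and did not pass, EPCAM and KRT19 rose by 1.35 and 1.04 on the log2 scale (KRT19 lost its call without any one shCon library), and CDH1 was at -0.72 and did not pass (edgeR adjusted p = 0.0636). Their summed level was 972 to 1226 CPM in shCdGAP and 741 to 762 CPM in shCon libraries, while the luminal prostate markers KLK2 and KLK3 had no read in any library. Among 6 stromal markers, COL1A1, COL3A1, LUM and PDGFRB rose, COL1A2 did not pass the test and DCN had at most 5 reads per library. The summed level of this list was 344 to 352 CPM in shCdGAP and 302 to 308 CPM in shCon libraries. The leukocyte genes PTPRC and CD3E had at most 1 read in any library, and CD68, the 1 tested gene of that list, rose by 1.55. The part of these marker genes in the FGF results was not tested. In bulk RNA, a change in the number of cells that express a gene and a change in RNA per cell cannot be told apart.

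Start-site windows were available from RefSeq (GRCh38.p14) for 9 of the 10 genes, each covering 250 bases before and 50 after an annotated start. FGFR1, the receptor gene that rose most, had no window. Windows of FGF1 and FGFR4 are shown because these ligand and receptor genes rose, and because they differ in base composition. All are written 5′ to 3′ on the gene's strand, with matches to a GC box (GGGCGG) or an AP-1 element (TGANTCA), on either strand, in capitals. The TATA box (TATAAA) and an ETS element (CCGGAAG) were also searched and were not found in the windows shown. The first FGF1 window, chr5:142698021-142698320 on the minus strand, lies at the start that coincides with the deposited end of the gene. The second, chr5:142644190-142644489 on the minus strand, lies at a start inside the gene. The FGFR4 window is chr5:177086665-177086964 on the plus strand.
FGF1, outer start: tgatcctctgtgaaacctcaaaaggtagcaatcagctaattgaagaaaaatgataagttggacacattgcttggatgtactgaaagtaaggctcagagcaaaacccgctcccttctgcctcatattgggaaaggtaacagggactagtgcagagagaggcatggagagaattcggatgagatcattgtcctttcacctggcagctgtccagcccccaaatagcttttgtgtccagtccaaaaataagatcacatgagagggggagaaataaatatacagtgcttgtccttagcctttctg
FGF1, inner start: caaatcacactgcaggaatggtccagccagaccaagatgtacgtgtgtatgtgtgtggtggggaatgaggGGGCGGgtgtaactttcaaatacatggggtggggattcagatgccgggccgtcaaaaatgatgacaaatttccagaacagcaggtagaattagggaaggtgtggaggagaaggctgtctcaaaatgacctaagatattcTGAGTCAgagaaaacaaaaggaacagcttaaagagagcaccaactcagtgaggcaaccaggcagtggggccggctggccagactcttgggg
FGFR4: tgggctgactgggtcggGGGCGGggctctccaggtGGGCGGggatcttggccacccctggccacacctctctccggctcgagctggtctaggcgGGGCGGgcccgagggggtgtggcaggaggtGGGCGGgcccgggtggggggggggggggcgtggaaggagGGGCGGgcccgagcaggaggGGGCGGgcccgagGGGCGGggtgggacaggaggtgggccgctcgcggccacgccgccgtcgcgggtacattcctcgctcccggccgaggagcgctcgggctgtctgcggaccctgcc
The outer FGF1 window had a GC content of 44.3% and 2 CpG dinucleotides, and held none of the 4 motifs. The inner FGF1 window held 1 GC box and 1 AP-1 element, and was the only one of 18 member windows with an AP-1 element, which 7.71% of all 35116 windows hold. The FGFR4 window had a GC content of 78.7%, 30 CpG dinucleotides and 7 GC boxes, a motif found in 45% of all windows. The outer window of FGFBP1 was also poor in CpG (3 dinucleotides), while the windows nearest the deposited gene ends of FGF2, FGF5, FGF18, FGFR2 and FGFR3 held 31 to 52. Over all windows the median was 14. The counts are per gene and do not say which start was used.

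The groups were compared across 16439 genes by the quasi-likelihood test of edgeR, and a gene passed at an adjusted p-value under 0.01 (Benjamini-Hochberg). Of the 7 tested FGF genes, FGF1, FGFR1 and FGFR4 rose in CdGAP-depleted cells, FGFRL1 fell, and FGF2, FGF5 and FGFBP1 did not pass. Thus 4 of 7 passed, where 46.2% of all tested genes did, 24.1% in the higher direction and 22% in the lower. With an additional limit of an absolute log2 fold change above 1, FGF1 and FGFR1 remained, where 8.56% of all tested genes were higher and 4.19% lower. The median log2 fold change was 0.41 over the 7 FGF genes and 0.01 over all tested genes. The 4 genes that passed were also the only tested FGF genes whose shCdGAP libraries lay entirely on one side of the shCon libraries, a separation seen for 67.1% of all tested genes.

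**Figure D1:**
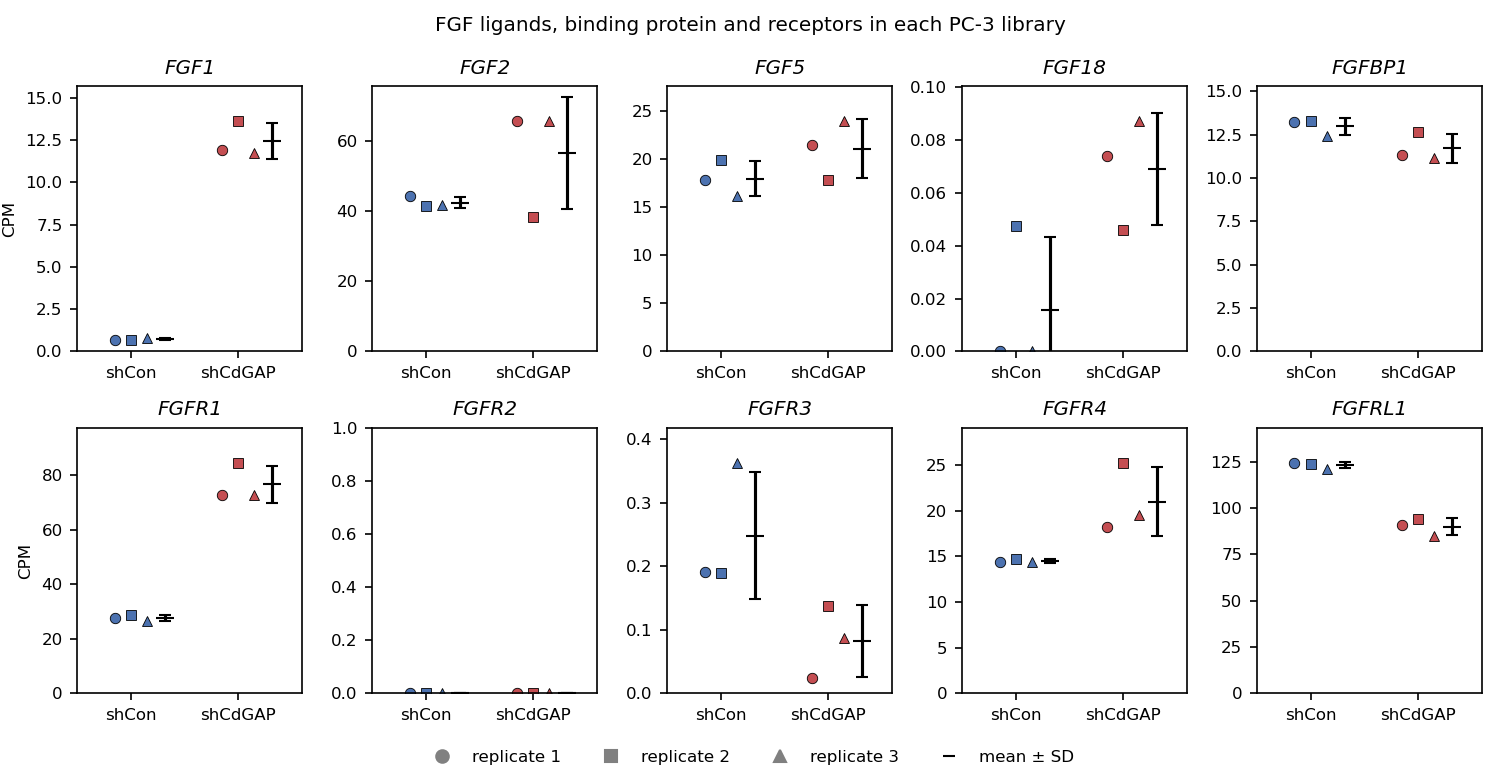
Level of each of the 10 FGF genes in each library, in CPM on linear axes that start at 0 and differ between panels. Points are libraries, with a marker shape for each replicate number, and the bars give the mean and SD over 3 libraries (the lower bar of FGF18 in shCon is cut at 0). FGF1 and FGFR1 are separated widely between the groups, and FGF2 has 1 shCdGAP library, at 38.3 CPM, below all others.

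FGF1, the ligand with the broadest receptor binding, showed the largest change of the family. The gene (ENSG00000113578, chromosome 5 from 142592178 to 142698070, minus strand) had 28, 29 and 26 reads in shCon replicates 1, 2 and 3, and 483, 595 and 403 reads in shCdGAP replicates 1, 2 and 3. Scaled to library size, these were 0.667, 0.687 and 0.787 CPM against 11.9, 13.7 and 11.7 CPM. Every shCdGAP library was thus far above every shCon library, and the spread within each group was small beside the difference. The mean was 17.4-fold higher, a difference of 4.13 on the log2 scale with a standard error of 0.125 (edgeR adjusted p = 3.74e-08). This difference stayed between 4.05 and 4.18 under 12 alternatives. The edgeR adjusted p was 2.43e-27 without shCdGAP replicate 2 and 1.40e-168 without a filter on low counts, at nearly the same fold change. Sizes of p-values from these fits, here and below, are thus not comparable with the main ones. SPRY4-AS1, an antisense gene that overlaps FGF1 on the other strand, had 17 to 34 reads in shCon and 31 to 42 in shCdGAP libraries and did not pass (log2 fold change 0.55, adjusted p = 0.0980), and the counting was by strand.

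The 10 tested genes nearest to FGF1 moved much less. Their log2 fold changes ran from -0.39 to 0.58 with a median of 0.46, and 5 of them passed as higher, among them NR3C1, the glucocorticoid receptor gene, at 0.47 (standard error 0.0389). SPRY4, which encodes a feedback inhibitor of FGF signalling and lies in this stretch, was at 0.13 and did not pass (adjusted p = 0.385). Chromosome 5 as a whole had a median of 0.14 over 751 tested genes.

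FGF2, a ligand with strong mitogenic activity on many cell types, was the most abundant of the 4 ligands in every library. Its gene (chromosome 4 from 122826708 to 122898236) was at 44.2, 41.3 and 41.7 CPM in the shCon replicates, and at 65.7, 38.3 and 65.8 CPM in the shCdGAP replicates. Replicates 1 and 3 of shCdGAP were above the controls and replicate 2 was below them, so the groups overlapped. The log2 fold change was 0.41 (95% interval -0.12 to 0.95, adjusted p = 0.153). Without shCdGAP replicate 2 it was 0.62 and passed (adjusted p = 3.86e-18), so this library decides the call. The gene NUDT6, which overlaps the end of FGF2 on the opposite strand, was at 6.94 ± 0.857 CPM in shCdGAP and 7.20 ± 0.611 in shCon cells (SD, n = 3 each) and did not pass (adjusted p = 0.729).

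FGF5, known as a regulator of hair growth and as a factor expressed in several tumours, lies on chromosome 4 from 80266599 to 80336680. It was at 17.8, 19.9 and 16.2 CPM in shCon and 21.4, 17.8 and 24.0 CPM in shCdGAP replicates. Replicate 2 of shCdGAP lay within the control range and the other two above it. The log2 fold change was 0.23 (95% interval -0.04 to 0.49, adjusted p = 0.126). Without shCdGAP replicate 2 it was 0.32 (adjusted p = 0.00113), and without a filter on low counts, where more genes entered the fit, it was 0.23 and passed (adjusted p = 0.00710).

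FGF18, a ligand of skeletal development, had 0, 2 and 0 reads in shCon and 3, 2 and 3 reads in shCdGAP libraries. Both groups were at or under the limit of 3 reads per library, so no fold is given. A difference was not detectable at this depth.

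FGFBP1 encodes a secreted carrier that releases FGF1 and FGF2 from heparan sulphate in the matrix. The gene (chromosome 4 from 15935569 to 15938740) was at 13.3, 13.3 and 12.4 CPM in shCon and 11.3, 12.7 and 11.1 CPM in shCdGAP replicates. Only the second shCdGAP library reached the control range. The log2 fold change was -0.15 (95% interval -0.32 to 0.02, adjusted p = 0.115), and without shCdGAP replicate 2 it was -0.22 and passed (adjusted p = 0.00505).

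FGFR1, the receptor most often linked to mesenchymal cells and to prostate tumour progression, rose in every shCdGAP library. It lies on chromosome 8 from 38411138 to 38468834. The shCon replicates were at 27.7, 28.6 and 26.4 CPM and the shCdGAP replicates at 72.6, 84.6 and 72.6 CPM. The lowest shCdGAP library was well above the highest control, and replicate 2 was the highest of its group. The mean was 2.78-fold higher, that is 1.47 on the log2 scale with a standard error of 0.0681 (edgeR adjusted p = 3.28e-07), and it passed under all 12 alternatives, with 1.38 as the lowest value. The 10 nearest tested genes had a median of -0.17 and none was above 0.47. Of these neighbours, 5 passed as lower and 3 as higher. ADAM9, which encodes a metalloproteinase, and PLEKHA2 fell, at -0.75 and -0.78, while LETM2 and PLPP5 rose, at 0.47 and 0.45.

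FGFR4, the receptor that pairs with β-Klotho for endocrine FGFs in liver and that is also expressed in prostate cancer, rose by less. It lies on chromosome 5 from 177086886 to 177098144. The shCon replicates were at 14.4, 14.7 and 14.4 CPM and the shCdGAP replicates at 18.3, 25.3 and 19.5 CPM. The groups did not overlap, and most of the spread came from the second shCdGAP library. On the log2 scale it was 0.54 higher with a standard error of 0.115 (edgeR adjusted p = 0.00356), and 0.37 without that library, where it still passed. The call was not firm on the control side: leaving out shCon replicate 1, 2 or 3 gave adjusted p-values of 0.0187, 0.0168 and 0.0181. Its 10 nearest tested genes had a median of 0.23 with a highest value of 0.60, and 5 of them passed as higher.

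FGFR2 and FGFR3 were barely present. FGFR2, whose splice forms separate epithelial from mesenchymal ligand binding, had no read in any of the 6 libraries, and a count of 0 allows up to 3 reads, that is 0.0689 to 0.0908 CPM. FGFR3 (chromosome 4 from 1793307 to 1808872) had 8, 8 and 12 reads in shCon and 1, 6 and 3 reads in shCdGAP replicates. Every shCdGAP library was below every shCon library, but the gene was too low for the filter. In the fit without a filter it was at -1.48 on the log2 scale with a standard error of 0.569, which did not pass (edgeR adjusted p = 0.0299). Of its 10 nearest tested genes, 6 passed as lower and the median was -0.46.

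FGFRL1 was the member at the highest level and the only one that passed as lower. The gene (chromosome 4 from 1009936 to 1026897) was at 124.6, 124.0 and 121.3 CPM in shCon and 91.0, 94.1 and 85.0 CPM in shCdGAP replicates. The 2 ranges were clearly apart. The shCdGAP mean was 0.730 of the control mean, that is -0.45 on the log2 scale with a standard error of 0.0439 (edgeR adjusted p = 2.89e-05), and 12 alternatives gave -0.49 to -0.42. Of its 10 nearest tested genes, 4 passed as lower and SPON2 as higher, with a median of -0.07.

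**Figure D2:**
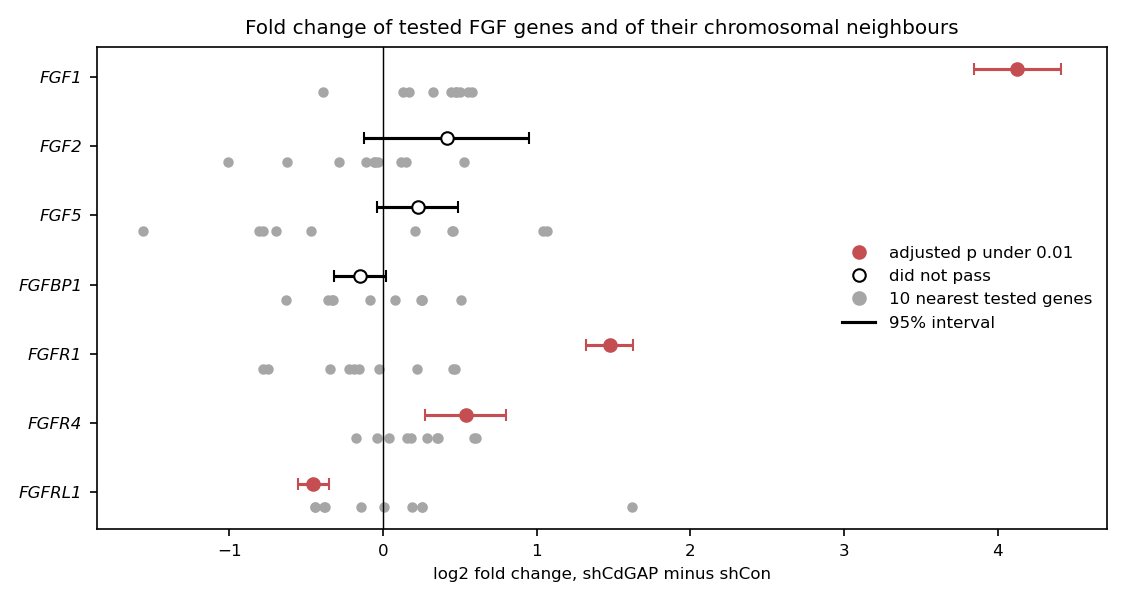
Log2 fold change (shCdGAP minus shCon) of the 7 tested FGF genes with 95% intervals, and of the 10 nearest tested genes of each, 5 on either side, as grey points. Filled red points passed an adjusted p of 0.01. FGF1 at 4.13 and FGFR1 at 1.47 lie beyond all of their neighbours, while FGFR4 at 0.54 lies within the range of its neighbours.

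To compare levels between genes, CPM was divided by the exon length of each gene (FPKM, that is CPM per kilobase). In shCon cells the order of levels was FGFRL1 at 29.7 ± 0.422, FGFBP1 at 9.57 ± 0.360, FGF2 at 6.26 ± 0.227, FGFR4 at 3.00 ± 0.0366, FGF5 at 2.99 ± 0.310 and FGFR1 at 2.17 ± 0.0852 FPKM (SD, n = 3). FGF1 followed at 0.135 ± 0.0121 FPKM. FGFR4 and FGF5 overlapped over libraries and the other neighbours in this order did not. In shCdGAP cells FGF1 was at 2.36 ± 0.202 FPKM and FGF5 at 3.51 ± 0.514 FPKM. FGFR1, at 6.03 ± 0.545 FPKM, lay above FGFR4 at 4.35 ± 0.777 without overlap, whereas in shCon cells FGFR4 lay above FGFR1 on this scale. In CPM, without the division by length, FGFR1 was above FGFR4 in all 6 libraries. FGFBP1, FGF2 and FGFR1, at 8.62, 8.35 and 6.03 FPKM, overlapped with their neighbours in the order.

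The summed FPKM of FGFR1 to FGFR4 was 5.19, 5.33 and 5.15 in shCon and 9.50, 11.9 and 9.77 in shCdGAP replicates. FGFR1 made up 42.0%, 42.2% and 40.4% of it in the shCon replicates and 60.2%, 55.9% and 58.5% in the shCdGAP replicates. Per length, FGFR1 thus had a smaller share than FGFR4 in every shCon library and a larger one in every shCdGAP library. This change of order rests on the division by length: as shares of reads, FGFR1 led in both groups, at 65.1 ± 0.911% in shCon and 78.5 ± 1.51% in shCdGAP cells, with FGFR4 at 34.3 ± 0.659% and 21.4 ± 1.46% (SD, n = 3 each). The FGFR4 share per length was 57.5 ± 0.559% in shCon and 41.7 ± 2.08% in shCdGAP cells, and that of FGFR3 was at most 1.46%. For FGFR1 and FGFR4 the two-sided exact permutation p was 0.1, the smallest that 3 against 3 libraries can give. Among the 4 ligand genes, FGF1 took 1.32% to 1.66% of the summed FPKM in shCon and 13.9% to 23.0% in shCdGAP libraries. FGF2 remained the largest ligand share, at 66.6 ± 2.52% in shCon and 57.8 ± 6.55% in shCdGAP cells (SD, n = 3 each).

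**Figure D3:**
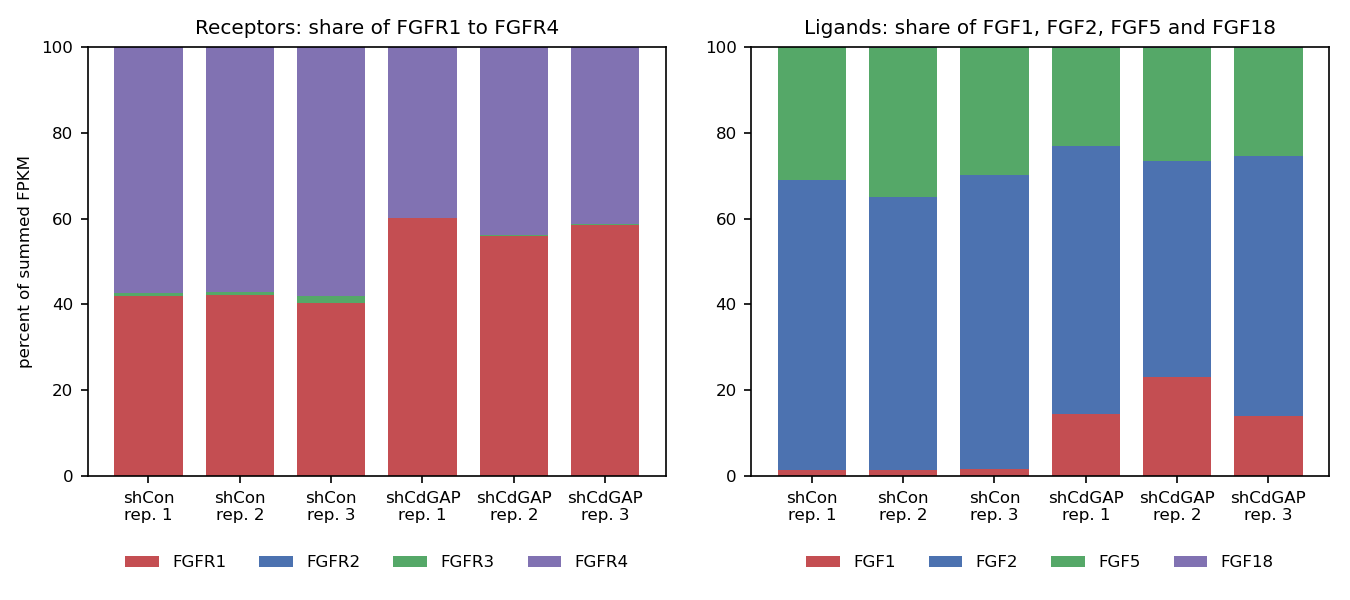
Share of each receptor (left) and ligand (right) gene in the summed FPKM of its set, in percent, for each library. FGFR1 is the smaller of the 2 main receptor shares in the shCon bars, at 40.4% to 42.2%, and the larger in the shCdGAP bars, at 55.9% to 60.2%, an order that holds per length and not for shares of reads, while FGF18 and FGFR2 are too low to be seen.

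The 3 tested genes with the pattern most like FGF1, by Euclidean distance of log2 CPM centred on each gene's mean over the 6 libraries, were SIMC1 (distance 0.200), APCDD1L-DT (0.237) and SYT14 (0.305). SIMC1 (chromosome 5 from 176238367 to 176345991) had 23, 23 and 18 reads in shCon and 430, 452 and 338 in shCdGAP replicates. SYT14, a member of the synaptotagmin family, had 43 to 50 reads in shCon and 465 to 723 in shCdGAP libraries. Likeness over 6 libraries rests almost wholly on the step between the groups.

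The other genes of the FGF pathway were described with lists chosen by function, and values below without a unit are log2 fold changes (shCdGAP minus shCon) with p-values adjusted in edgeR. Of 18 other genes of the FGF family, 5 were tested and 3 passed, each as lower and beyond a log2 fold change of -1, as did 4.19% of all tested genes. Of these, FGF14 and FGF12 encode intracellular FGF homologues that bind sodium channels and are not secreted. FGF14 (chromosome 13) had 219, 232 and 204 reads in shCon and 32, 32 and 22 in shCdGAP replicates, which passed at -2.95 with a standard error of 0.143 (edgeR adjusted p = 4.39e-07). All 10 of its nearest tested genes passed as lower too, with a median of -1.62. FGF12 was at -2.56 and FGF22 at -2.42, with at most 5 reads in any shCdGAP library. FGF11 and FGF13, also intracellular homologues, did not pass, at 1.03 and 0.28. FGF7, a stromal ligand of epithelial cells, was too low for the filter, with 4, 0 and 2 reads in shCon and 18, 32 and 6 in shCdGAP replicates, and FGF17 had 2, 1 and 1 against 11, 5 and 5. FGF8, FGF9, FGF16 and FGF21 had at most 3 reads in any library. In the fit without a filter FGF7, FGF17 and FGF13 passed as higher, with adjusted p-values of 3.53e-08, 0.00859 and 0.00227. The genes FGF3, FGF4, FGF6, FGF10, FGF19, FGF20 and FGF23 had no read in any library.

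Binding proteins and coreceptors moved both ways, with 2 of 14 tested genes higher, 6 lower and a median of -0.25, beside 24.1% higher and 22% lower among all tested genes. SDC3, a heparan sulphate proteoglycan of the syndecan family, rose from 21.2 ± 1.75 to 72.6 ± 4.30 CPM (SD over 3 libraries per group), which passed at 1.78 (adjusted p = 1.34e-07), and SDC1 rose by 0.79. The glypicans GPC4 and GPC6 fell, at -2.10 and -1.54, and so did NCAM1, a cell adhesion molecule that binds FGF receptors, at -2.93 from at most 24 reads. GPC6 lies on chromosome 13, where 8 of its 10 nearest tested genes passed as lower with a median of -1.75. GPC4 lies on chromosome X, where 6 of its 10 nearest tested genes passed as lower with a median of -0.30. NCAM1 lost its call without shCdGAP replicate 1 or shCon replicate 1 (highest adjusted p = 0.0146), and it was at -4.84 without shCdGAP replicate 2, which held 6 of the 7 shCdGAP reads. Without shCdGAP replicate 2, 4 genes of this list were higher and 8 lower, a setting under which calls over all tested genes also went up, from 3963 to 5013 higher and from 3624 to 5022 lower. The Klotho coreceptors of endocrine FGFs were all but absent, with no KLB read and at most 5 KL reads in any library.

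Enzymes that build or trim heparan sulphate were lower in 8 and higher in 6 of 17 tested genes, with a median of -0.10, where 22% of all tested genes were lower and 24.1% higher. The strongest decrease was that of HS6ST2, a 6-O-sulphotransferase, from 38, 54 and 27 reads in shCon to 1, 3 and 0 in shCdGAP replicates (-4.78, with a 95% interval of -5.92 to -3.64). HS6ST2 lies next to GPC4 among the tested genes of chromosome X, and 6 of its 10 nearest tested genes passed as lower. SULF2, an extracellular enzyme that removes 6-O-sulphate groups, fell from 174 ± 3.50 to 44.4 ± 3.06 CPM (SD over 3 libraries per group), which passed at -1.97 (adjusted p = 2.36e-08). HPSE, heparanase, which cleaves the chains, rose by 1.36 (adjusted p = 5.40e-06), and HS3ST1, a 3-O-sulphotransferase, fell, at -1.24. The chain polymerase genes EXT1 and EXT2 were at 0.38, which passed, and -0.02, which did not.

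Genes known for the release of FGF1 or FGF2 were higher in 5 of 6 cases and lower in none, with a median of 0.79. SYT1, which takes part with S100A13 in the release of FGF1, had 444, 371 and 313 reads in shCon and 863, 1145 and 734 in shCdGAP replicates (log2 fold change 1.26, adjusted p = 1.21e-05). S100A13 itself rose by 0.24 and lost its call without shCon replicate 1 (adjusted p = 0.0115). CASP1, a protease that also processes interleukins, rose by 1.90 and SPHK1, a sphingosine kinase, by 1.52. SPHK1 was lowest in shCdGAP replicate 2, at 526 reads against 850 and 840, and did not pass without any one of the shCon libraries or without a filter on low counts (highest adjusted p = 0.0255). TEC was at 0.23 and did not pass. The list has 6 genes, and nothing particular to it can be drawn from the count beside the background of 24.1%.

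Among adaptors and kinases of the cascade, 4 of 30 tested genes were higher and 10 lower, with a median of -0.08, and the share that passed was close to the 46.2% of all tested genes. FRS2, the docking protein of FGF receptors, was at 45.6 ± 0.912 CPM in shCdGAP and 46.7 ± 0.0296 in shCon cells (SD, n = 3 each), and the 95% interval of its log2 fold change was -0.12 to 0.06. NRAS, a RAS GTPase, rose by 0.55. STAT3 had no read in any library. With shCdGAP replicate 2 left out, 16 genes of this list were lower, and among all tested genes the lower calls went from 3624 to 5022.

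Of 23 tested targets and feedback inhibitors of FGF and ERK signalling, 8 were higher and 6 lower, with a median of 0.11, beside 24.1% and 22% of all tested genes. RGS4, a regulator of G-protein signalling, was at 3.19 ± 0.368 CPM in shCon and 23.4 ± 7.86 in shCdGAP cells (SD over 3 libraries per group) and passed at 2.88 (adjusted p = 0.000102). FLRT3, a membrane protein that binds FGF receptors, rose by 1.98. The inhibitors moved both ways. SPRY1 fell, at -1.01, a call that was lost when genes of low counts were kept in (adjusted p = 0.0115). SPRED1 and DUSP4 also fell, at -0.30 and -0.61. IL17RD and SPRED3 rose, at 0.76 and 0.95. SPRED3 lost its call without any one shCon library (highest adjusted p = 0.0225), and 8 of the 10 tested genes nearest to IL17RD passed as higher. SPRY2 fell from 17.6 ± 1.07 to 8.75 ± 1.48 CPM, and the 10 tested genes nearest to it on chromosome 13 had a median of -1.78. DUSP6, a phosphatase of ERK that the pathway induces, had 4381, 4510 and 3472 reads in shCon and 8952, 17001 and 6918 in shCdGAP replicates. All shCdGAP libraries were higher, but the log2 fold change of 1.36 did not pass (adjusted p = 0.0111). It was 0.99 and passed when shCdGAP replicate 2 was left out (adjusted p = 1.52e-22). The ETS factors ETV4 and ETV5, also induced by FGF signalling, fell, at -0.39 and -0.26. ETV5 lost its call when any library other than shCdGAP replicate 2 was left out (highest adjusted p = 0.0169). Without that library, 11 genes of the list were higher and 10 lower.

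The splicing regulators that decide between the IIIb and IIIc forms of FGF receptors were 1 higher, 2 lower and 2 not passed, where 46.2% of all tested genes passed. ESRP1, which favours the epithelial form, had 153, 156 and 118 reads in shCon and 22, 93 and 26 in shCdGAP replicates, a log2 fold change of -1.63 that did not pass (adjusted p = 0.0121). It was -2.51 and passed when shCdGAP replicate 2 was left out (adjusted p = 8.84e-15). PTBP1 fell, at -0.35, RBFOX2 rose, at 0.20, and MBNL1 fell, at -0.13, while ESRP2 was at -0.07 and did not pass. RBFOX2 lost its call without shCon replicate 1 or 2 (highest adjusted p = 0.0132), and MBNL1 lost its call under 8 of 12 alternatives, the replicate block and every left-out library except shCdGAP replicate 2 among them (highest adjusted p = 0.0274). The gene counts do not separate the receptor forms.

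**Figure D4:**
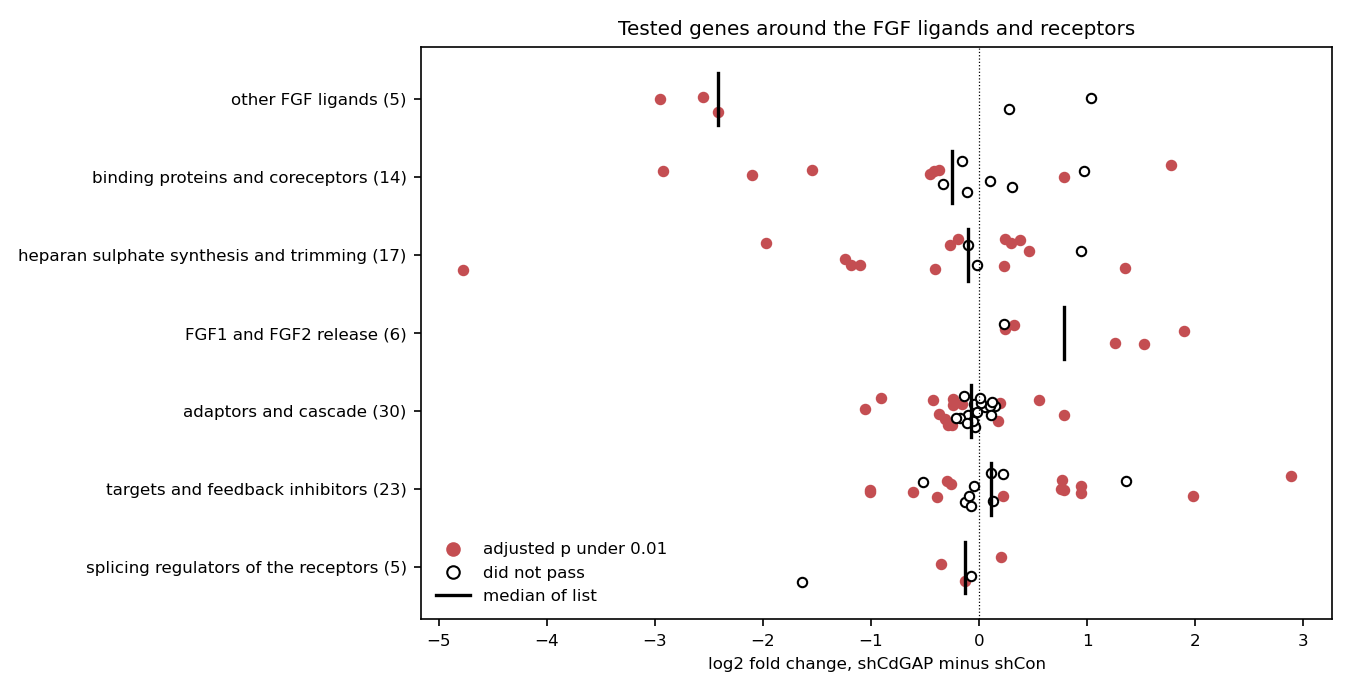
Log2 fold change (shCdGAP minus shCon) of every tested gene in 7 lists around the FGF genes, with the number of tested genes in brackets and the median of each list as a bar. Filled points passed an adjusted p of 0.01, and the points of the release list lie at or above 0.23 while the other lists reach to both sides of 0.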

How the data were processed

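Measured by RNA-seq were 3 shCdGAP and 3 shCon samples of PC-3 cells. For each, the authors deposited 1 table of unnormalised counts per Ensembl gene. Per the file headers, reads were counted with featureCounts 1.6.0 on Ensembl release 77, by strand and as read pairs. The methods give version 1.4.6 and a single-read kit, with STAR 2.5.1b and GRCh38. Reads in overlapping genes of one strand are left out by these settings. Of 64253 genes, 87.3% matched a symbol.

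The test was edgeR's quasi-likelihood F test with robust dispersions and no covariate (edgeR 4.0.16, R 4.3.3), after filterByExpr and TMM scaling. Standard errors were derived from the fold change and F. CPM uses TMM-adjusted library sizes, and FPKM divides it by the length column. The neighbours of a gene are the 5 nearest tested genes on each side. A pseudocount of 0.5 CPM was used for likeness. Alternatives were DESeq2 1.42.0, other scalings, filters and thresholds, a replicate block and each library left out. The members and gene lists were chosen with earlier results of these data known. Named were all members, up to 4 passing genes per list with the largest change and groups that do not overlap, the 3 genes most like FGF1, overlapping genes and untested ligands. Other list genes and neighbours, among them DUSP6, ESRP1, ETV4, ETV5, FRS2, EXT1, EXT2, TEC and those at 0, were added after their values were seen.

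Deviations from the group means correlated between same-numbered libraries (r = 0.124, 0.124 and 0.120 over 10282 genes). Libraries of unlike number gave r from -0.206 to 0.102, the highest of these close to the same-numbered values. The replicate numbers may pair the samples. The labels do not say so. The methods name 3 independent samples per group. P-values of the main test measure the spread between them, with dispersions estimated using all tested genes. Those of the fits without shCdGAP replicate 2 or without a filter on low counts are not comparable in size with the main ones. The test was checked on simulated counts. Protein sequences were not used here, and some genes of the lists are not reported here by name. Limits from a count of 0 cover counting error only. Groups of 3 are too small to test for an outlying sample.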

Additional observations from a re-analysis of the deposited data

How the results depend on the processing

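Under 12 alternatives no FGF gene changed direction, and FGF1, FGFR1 and FGFRL1 passed in each. Leaving out 1 library at a time gave log2 fold changes of 0.28 to 0.62 for FGF2, 0.11 to 0.32 for FGF5, -0.22 to -0.12 for FGFBP1 and 0.37 to 0.62 for FGFR4. The number of FGF genes that passed was then 2 to 5 higher and 1 to 2 lower. All gains came without shCdGAP replicate 2, and FGFR4 was lost without any one shCon library. The cause was not tested. Under the replicate block the log2 fold change was 4.13 for FGF1, 1.47 for FGFR1 and 0.53 for FGFR4, and it changed no call of the 7 tested FGF genes, only that of MBNL1 among the list genes named as passed, and no count of passing genes by over 1.5 times. Testing against a log2 fold change of 1 left 0 FGF genes lower and 658 higher and 340 lower genes among all tested, since small changes cannot pass it. Without a filter on low counts FGF5 passed (0.23), 3 other FGF-family genes were higher and 1 splicing regulator was lower, as also with library-size scaling (1). With at least 10 reads in every library, 1 other family gene was lower, since fewer were tested. As shares of reads, not divided by length, the difference was 13.4 percentage points for FGFR1 (65.1% to 78.5%) and -12.9 for FGFR4 (34.3% to 21.4%), against 16.6 and -15.8 per length, and FGFR1 led in both groups. Without shCdGAP replicate 2, chosen after seeing the data, 1 other family gene and 4 coreceptor genes were higher, and 16 cascade genes and 10 targets were lower, while calls over all tested genes went from 3963 to 5013 higher and from 3624 to 5022 lower. Scaling moved the median gene by at most 0.03.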
